A study of Homo sapiens with 6 samples.

Results

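The heat shock protein genes described here are the 10 genes HSPA1A, HSPA5, HSPA8, HSPA9, HSP90AA1, HSP90AB1, HSPD1, HSPE1, HSPH1 and DNAJB1, out of 19974 protein-coding genes on chromosomes 1 to 22 and X. They were chosen by name with results of these lists in view, since the HMGB2 peak of HSPA9 was known to be among the strongest. Their peaks were all those within the RefSeq span of the gene or 5 kb on either side of it, and because values of these lists were in view when the genes were chosen, they are given as a description, without a test. The study mapped SON and HMGB2 by ChIPmentation, in which a transposase adds sequencing adapters to antibody-bound chromatin, in IMR90, a lung fibroblast line of human embryonic origin. The SON groups were an untreated control and cells given ICM, an abbreviation the labels do not expand, for 3 or for 6 days. HMGB2 was mapped without treatment, and each group has 1 peak list, so no difference between groups has a replicate check. Cells for SON were fixed with formaldehyde, and cells for HMGB2 also with the longer crosslinker EGS, so fixation and target cannot be told apart in any contrast of SON with HMGB2.

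Heat shock protein genes encode molecular chaperones, proteins that fold other proteins, hold them in solution or pass them on for degradation. The family is named for its response to heat, in which the transcription factor HSF1 binds heat shock elements, short inverted repeats in the promoters, and raises transcription. Several of these genes are also transcribed at a high level in unstressed cells, and genes induced by heat have been found close to nuclear speckles, the bodies in the nucleus that hold splicing factors and of which SON is a core protein. HMGB2 is a DNA-bending protein of the high mobility group whose loss from chromatin accompanies senescence.

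SON peaks numbered 22362 without treatment, 11158 after 3 days and 5583 after 6 days, and HMGB2 peaks 6013. Strength is given as the −log10 p of the authors' peak caller. For SON it is the lower value of 2 replicates and comes with a global irreproducible discovery rate (IDR), the expected share of irreproducible peaks at that strength or above. The lists keep no read counts, so depth is unknown, and a strength or a rank is read only within its own list. Ranks in lists of unequal length cannot be compared to show a change with treatment. Of marker genes, 8 of 10 for fibroblasts had an untreated SON peak, 1 of 5 for epithelial, 2 of 4 for endothelial and 1 of 4 for blood cells, beside 57.1% of all protein-coding genes. For fibroblast markers the counts were 5 of 10 at 3 days, 3 of 10 at 6 days and 4 of 10 for HMGB2, beside 41.0%, 21.5% and 23.3% of all protein-coding genes. At 3 days epithelial, endothelial and blood markers had 0 of 5, 1 of 4 and 1 of 4, with none at 6 days or for HMGB2. Presence of a peak is not expression, and the cell type was not checked further.

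Sequences before the starts that carry the main observations are shown 5′ to 3′ on the strand of the gene, from the RefSeq promoter table of GRCh38.p14. The HSPA9 stretch lies at chr5:138575398-138575651 on the minus strand, inside the second strongest HMGB2 peak. Its capitals mark GC boxes (GGGCGG or its reverse complement) and a pair of heat shock units across the start. The stretch between the starts of HSPD1 and HSPE1 lies at chr2:197500275-197500378, given on the plus strand, and its capitals mark a GC box. In the other stretches capitals mark pairs of heat shock units (TTCNNGAA or GAANNTTC), CCAAT boxes in either orientation and the exact form TATAAA of the TATA box. The HSPA1A stretch lies at chr6:31815293-31815542 on the plus strand, and the HSPA5 stretch, with an ER stress element also in capitals, at chr9:125241344-125241593 on the minus strand. HSP90AA1 is shown before its second start, at chr14:102087045-102087294, and DNAJB1 before its first start, at chr19:14529272-14529521, and its second, at chr19:14518398-14518647, all on the minus strand. HSP90AA1 and DNAJB1 are shown because their strongest SON peak and their strongest HMGB2 peak stood at different starts. HSPA1A and HSPA5 are shown for the motifs of heat and ER stress genes beside their peaks.
HSPA9: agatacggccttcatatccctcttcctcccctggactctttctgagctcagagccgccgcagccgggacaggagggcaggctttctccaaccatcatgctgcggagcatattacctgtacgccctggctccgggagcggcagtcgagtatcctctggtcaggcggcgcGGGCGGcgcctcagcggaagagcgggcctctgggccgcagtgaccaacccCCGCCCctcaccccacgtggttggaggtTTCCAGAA
HSPD1-HSPE1: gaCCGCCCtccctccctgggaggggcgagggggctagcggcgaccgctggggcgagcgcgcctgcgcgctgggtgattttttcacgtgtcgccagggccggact
HSPA1A: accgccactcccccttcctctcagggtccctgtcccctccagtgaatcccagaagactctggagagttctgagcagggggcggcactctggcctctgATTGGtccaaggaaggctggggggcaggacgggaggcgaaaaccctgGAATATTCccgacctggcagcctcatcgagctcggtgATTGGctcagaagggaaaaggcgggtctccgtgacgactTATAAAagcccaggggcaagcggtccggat
HSPA5: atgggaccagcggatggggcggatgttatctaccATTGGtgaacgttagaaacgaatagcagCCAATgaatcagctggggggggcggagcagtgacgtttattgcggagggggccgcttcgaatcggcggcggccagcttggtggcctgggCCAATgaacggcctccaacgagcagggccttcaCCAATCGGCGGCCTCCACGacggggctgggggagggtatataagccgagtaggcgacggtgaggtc
HSP90AA1, second start: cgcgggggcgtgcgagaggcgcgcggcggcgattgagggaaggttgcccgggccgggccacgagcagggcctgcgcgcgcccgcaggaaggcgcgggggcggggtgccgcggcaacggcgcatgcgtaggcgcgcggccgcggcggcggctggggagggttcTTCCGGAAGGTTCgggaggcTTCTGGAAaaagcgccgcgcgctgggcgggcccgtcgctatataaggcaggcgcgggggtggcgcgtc
DNAJB1, first start: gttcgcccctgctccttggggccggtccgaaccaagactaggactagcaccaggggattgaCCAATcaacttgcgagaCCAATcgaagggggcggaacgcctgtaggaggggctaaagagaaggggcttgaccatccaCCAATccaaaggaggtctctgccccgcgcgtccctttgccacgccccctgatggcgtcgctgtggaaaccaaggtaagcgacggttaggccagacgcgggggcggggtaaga
DNAJB1, second start: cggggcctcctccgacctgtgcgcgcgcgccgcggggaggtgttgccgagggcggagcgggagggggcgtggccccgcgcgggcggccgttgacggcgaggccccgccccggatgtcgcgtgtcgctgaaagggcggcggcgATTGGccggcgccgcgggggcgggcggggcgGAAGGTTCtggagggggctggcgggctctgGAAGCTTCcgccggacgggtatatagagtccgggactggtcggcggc

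Most of these genes carried a peak in every list. Untreated SON peaks were present at all 10, against 57.1% of protein-coding genes, and SON peaks at 3 days at 9, against 41.0%. At 6 days 8 genes had a SON peak, against 21.5%, and HMGB2 peaks were present at all 10, against 23.3%. An HMGB2 peak remained at 6 of the 10 genes when the stronger 50% of that list was used, and at 5 when the fold had to reach the list median. The shares of all protein-coding genes under these cuts were not counted, so these counts have no background beside them. Peaks stood in all 3 SON lists at 8 genes (20.3% of protein-coding genes) and in all 4 lists at the same 8 (10.6%). The exceptions were HSPA1A, with no SON peak at 3 or 6 days, and HSP90AB1, with none at 6 days. Their median span was 10690.5 bp against 24170.5 bp over protein-coding genes, and HSP90AA1, DNAJB1 and HSPH1 were longer than the latter. HSPD1 and HSPE1 share their peaks, so the 10 genes stand for 9 loci.

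**Figure D1:**
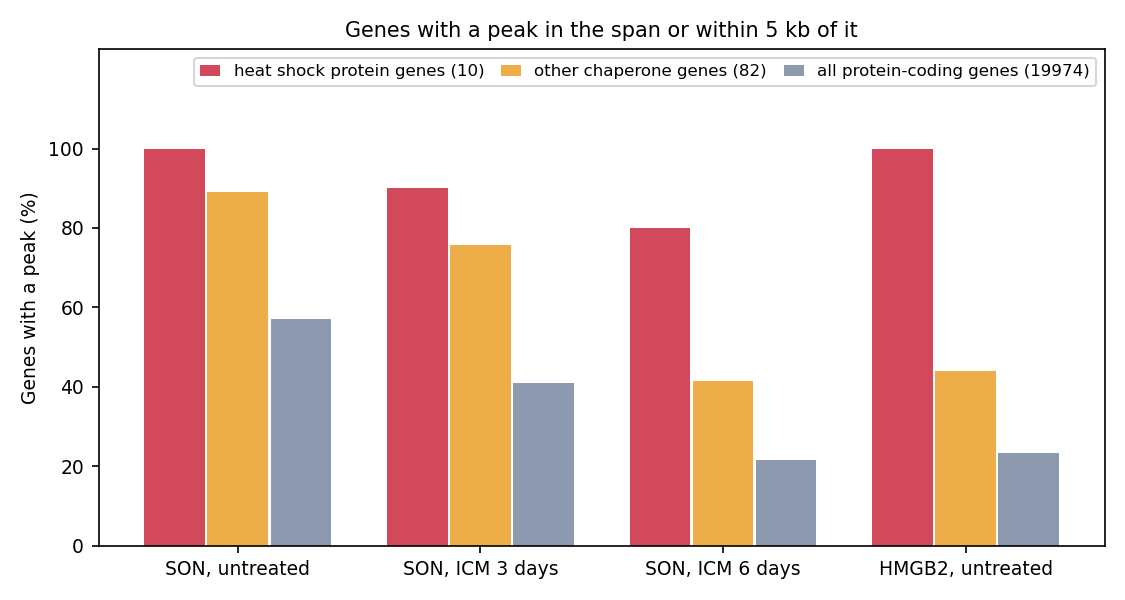
Percentage of genes with a peak in the span or within 5 kb of it (y axis) in each of the 4 lists (x axis), for the 10 heat shock protein genes, 82 other chaperone genes and all 19974 protein-coding genes. The heat shock protein genes stand at 100, 90, 80 and 100%, above the other chaperone genes in each list, and were chosen with these lists in view.

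Most of these peaks lay at an annotated start. Within 1 kb of a start there was a peak at all 10 genes in the untreated SON list (40.1% of protein-coding genes) and at 9 genes at 3 days (28.2%). The same held for 6 genes at 6 days (11.7%) and for 9 genes in the HMGB2 list (15.2%). Of 13 distinct untreated SON peaks, 11 had their summit within 1 kb of a start, and 10 of these summits lay upstream of the nearest start. Upstream of a start can still be inside the gene span, as at HSPA8. The same shares over all untreated SON peaks are not given here, so the placement is not compared with that of the list. Few peaks lay elsewhere. HSPA5 had SON peaks 7470 bp downstream and 2097 bp upstream of its start, HSPH1 had a 6-day SON peak 7232 bp and an HMGB2 peak 1499 bp downstream, and HSP90AA1 had an HMGB2 peak 5355 bp downstream of its second start. The reference used here gives spans and starts without exons, so peaks inside genes were not assigned to exons, introns or untranslated regions.

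**Figure D2:**
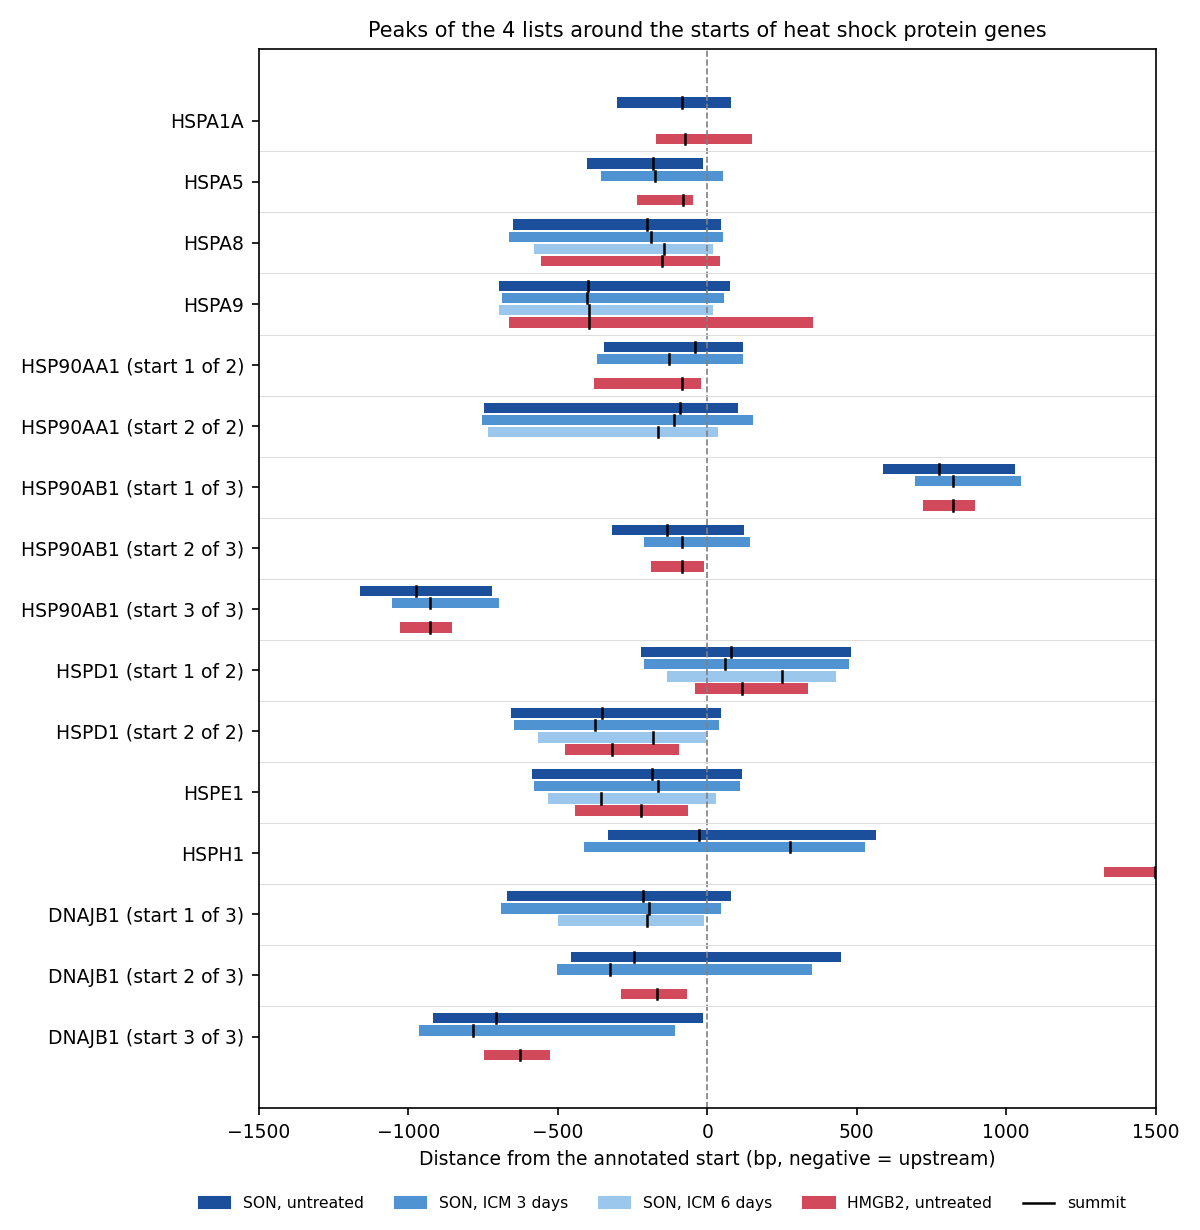
Peaks of the 4 lists as bars, with summits as black ticks, by distance in bp from each of 16 annotated starts of the 10 genes (x axis, negative values upstream). Genes with several starts have a row for each, and the peaks of HSPD1 and HSPE1 are the same intervals seen from either gene. The SON and HMGB2 bars of HSP90AA1 and DNAJB1 are divided between their starts.

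HSPA9 encodes mortalin, the HSP70 of mitochondria, which draws imported proteins into the matrix. Its HMGB2 peak, at chr5:138575049-138576065, ranked 2 of 6013 by −log10 p, with 260.48, and 8 of 6013 by fold enrichment, with 14.2 against a list median of 4.89. It was 1017 bp wide, where the median HMGB2 peak was 242 bp and 36 of 6013 peaks reached 1 kb. SON peaks stood at the same place in every SON list, with a −log10 p of 65.0 without treatment (rank 279 of 22362), 48.1 at 3 days (rank 351 of 11158) and 15.4 at 6 days (rank 530 of 5583). The summits of the 4 peaks lay between 394 and 402 bp upstream of the start, and the HMGB2 summit was 2 bp from the untreated SON summit. Across all 3757 overlapping pairs of an HMGB2 and an untreated SON peak the median distance of summits was 38 bp. All 254 bases shown for HSPA9 lay inside the peaks of all 4 lists, while the summits lay upstream of them. A lncRNA, LOC105379193, spans the same place.

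**Figure D3:**
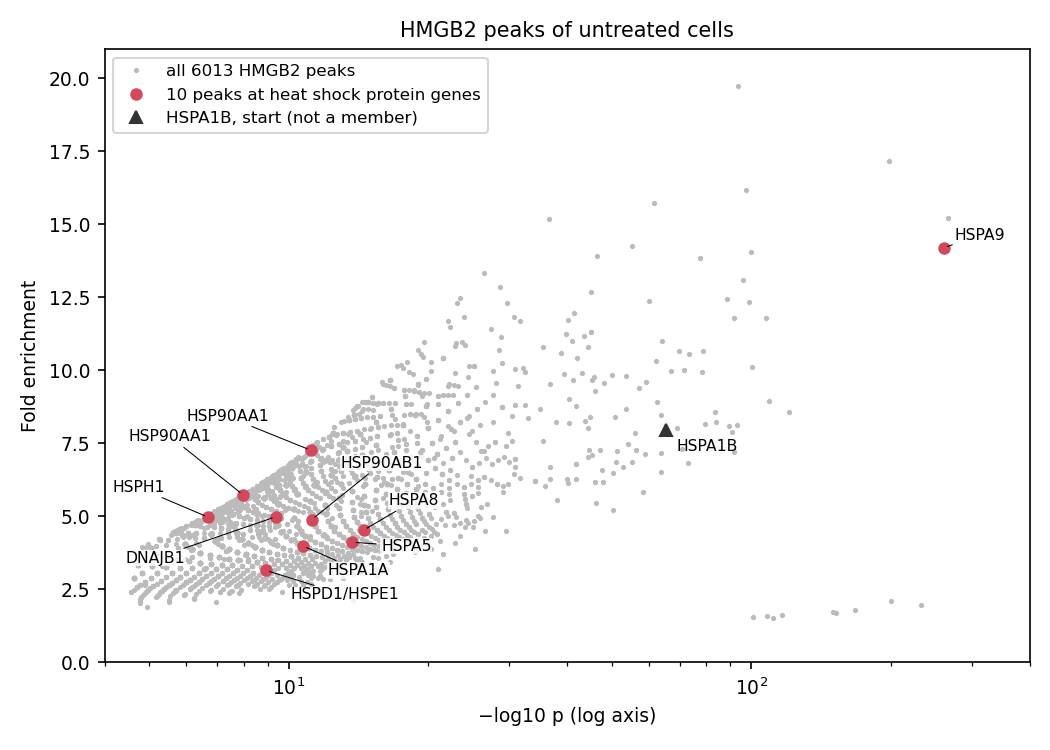
Fold enrichment (y axis) against −log10 p (x axis, log scale) of all 6013 HMGB2 peaks, with the 10 peaks at heat shock protein genes in red and the peak at the start of HSPA1B as a black triangle. HSPA9 stands at a fold of 14.2 and a −log10 p of 260.48, and the other 9 red points lie between 3.16 and 7.27 in fold.

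The other mitochondrial genes of the group, HSPD1 and HSPE1, encode the chaperonin HSP60 and its lid HSP10 and are transcribed in opposite directions from the stretch shown above. They had the strongest SON peak of the group in untreated cells, at chr2:197499794-197500495, with a −log10 p of 100.96 and rank 116 of 22362. At 3 days the value was 43.0 (rank 423 of 11158) and at 6 days 13.6 (rank 753 of 5583). HMGB2 was weak here. Its peak had a −log10 p of 8.91 and rank 3417 of 6013, and its fold of 3.16 was the lowest of the group. Thus, of the mitochondrial loci, HSPA9 was high in all 4 lists and HSPD1-HSPE1 in the SON lists. The SON peaks covered all 104 bases between the starts in every SON list, and the HMGB2 peak covered 40 of them.

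HSPA8 encodes the constitutive cytosolic HSP70, which also strips clathrin from coated vesicles. Its untreated SON peak, at chr11:123062090-123062785, had a −log10 p of 60.1 and rank 325 of 22362. The 3-day peak had 42.4 (rank 438 of 11158), the 6-day peak 13.5 (rank 769 of 5583) and the HMGB2 peak 14.5 (rank 1009 of 6013, fold 4.53). The 4 summits lay between 143 and 203 bp upstream of the annotated start, chr11:123062136. The span of HSPA8 ends farther upstream, at 123062462, so all these summits lay inside the gene span. All 4 peaks reached into HSPA8 and into the neighbouring lncRNA LOC124902775.

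HSPA1A, the heat-induced cytosolic HSP70, had the lowest −log10 p in the untreated SON list among the HSP70 genes of the 10. Its peak, at chr6:31815241-31815620, had a −log10 p of 11.03 and rank 9677 of 22362, near the list median of 9.91, and also met HSPA1L, a relative expressed in testis. Neither later list had a SON peak within 5 kb. The HMGB2 peak had a −log10 p of 10.7, rank 2303 of 6013 and a fold of 3.99, with its summit 8 bp from that of SON. The neighbouring copy HSPA1B, which is not in the group, had stronger peaks at its start. Its HMGB2 peak had a −log10 p of 65.5 and rank 41 of 6013, and its SON peaks had 28.8, 14.8 and 8.55 in the untreated, 3-day and 6-day lists. The promoter windows of both genes were identical at 277 of 299 aligned bases (92.6%), with a longest shared run of 49 bases. How reads that match both genes were placed is not given in the sources used here, so values at this locus are uncertain.

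HSPA5 encodes BiP, the HSP70 of the endoplasmic reticulum and a classical target of the unfolded protein response. It had the most SON peaks of the group, 3 without treatment, 3 at 3 days and 1 at 6 days. The untreated peak at the start had a −log10 p of 28.6 (rank 1731 of 22362). This peak also met the divergent transcript HSPA5-DT. The peak downstream of the gene, in RABEPK, had 29.0, and a peak farther upstream in HSPA5-DT, 2097 bp from the start, had 20.2. At 3 days the same 3 places had 11.1, 9.99 and 9.05. The 6-day peak was the one farther upstream in HSPA5-DT, with 8.19 and an IDR of 0.63, the upper bound of its list. HMGB2 had 1 peak, 82 bp upstream of the start, at a fold of 4.12 and a −log10 p of 13.7.

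HSP90AA1, the stress-induced HSP90, has an upstream start, where the peaks also meet WDR20, and a second start 52.7 kb downstream. SON was strong at the second start, with a −log10 p of 29.3 without treatment (rank 1645 of 22362), 51.1 at 3 days (rank 319 of 11158) and 12.8 at 6 days (rank 889 of 5583). The 3-day peak had the best rank of the group in that list and a global IDR of 3.08e-05. HMGB2 had no peak at this start. Its peak lay at the upstream start, with a −log10 p of 11.2, a fold of 7.27 and a summit 85 bp upstream. The SON peaks there were weaker than at the second start in both lists that held one, with 13.1 in untreated cells and 7.87 at 3 days.

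DNAJB1, the J-domain protein (HSP40) that delivers substrates to HSP70, also had its strongest SON peak and its HMGB2 peak at different starts. SON was strong at its first start, where the peaks also meet TECR and MIR639. This start, chr19:14529271, lies inside the gene span, which ends farther upstream, at 14560391. The −log10 p there was 30.3 without treatment, 29.2 at 3 days and 11.3 at 6 days. The 6-day peak ranked 1232 of 5583, with a global IDR of 0.0879. At the second start, 10.9 kb downstream, SON had 7.89 in untreated cells, at the upper bound of IDR in its list (0.431), and 13.6 at 3 days, where the IDR was 0.00863. No SON peak lay there at 6 days. HMGB2 peaked at the second start, with 9.39 and a fold of 4.99, and not at the first. In both genes HMGB2 lay at the start where SON was the weaker. It overlapped the untreated SON peak there, by 324 bp at HSP90AA1 and 221 bp at DNAJB1.

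HSP90AB1, the constitutive HSP90, had weak peaks at the second of its 3 starts, with a SON −log10 p of 10.2 in untreated cells (rank 10690 of 22362) and 8.98 at 3 days (rank 5731 of 11158). Its HMGB2 peak had 11.2 and a fold of 4.89, equal to the list median to 3 digits. HSPH1 encodes HSP105, a large HSP70 relative that exchanges nucleotides on HSP70. Its SON peak at the start had 20.5 in untreated cells and 15.7 at 3 days, and was 898 and 937 bp wide. Its 6-day peak lay elsewhere, 7232 bp inside the gene, with 6.92 and a global IDR of 0.63, and its HMGB2 peak, with 6.70 and rank 5198 of 6013, met no SON peak. HSPH1 was thus the 1 gene of the 10 where untreated SON and HMGB2 peaks did not overlap.

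**Figure D4:**
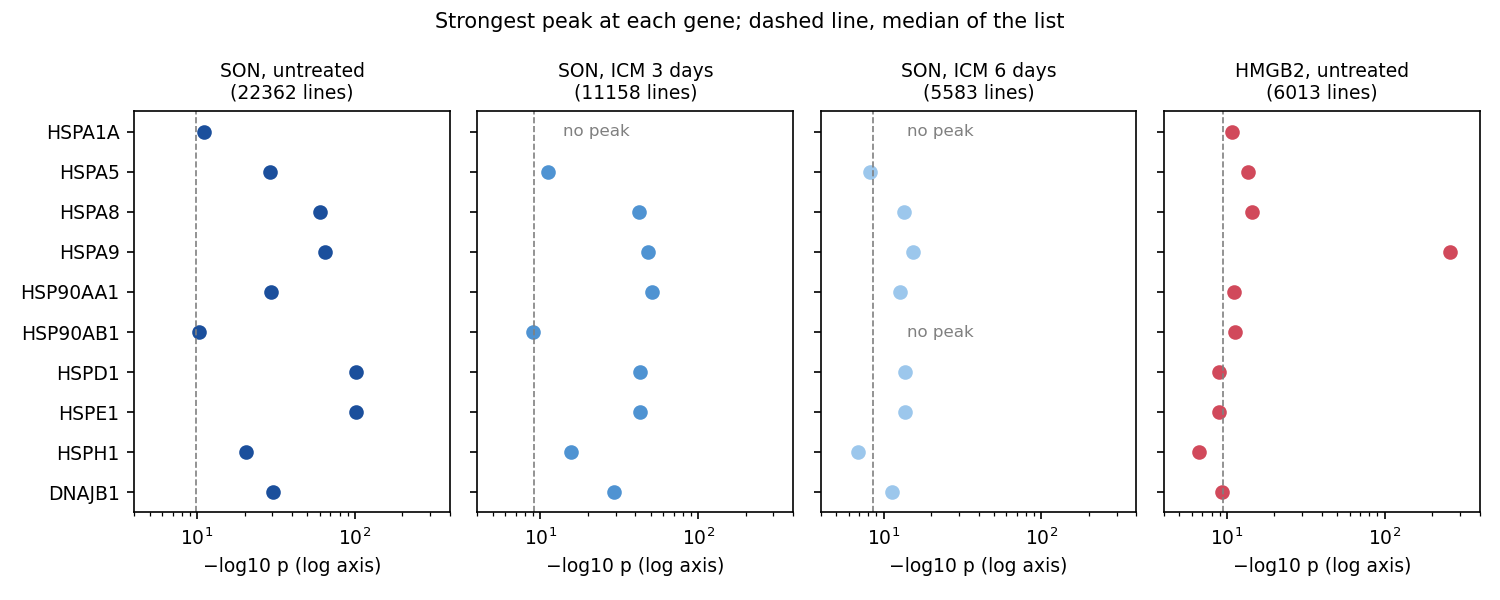
Strongest peak of each gene in each list as −log10 p (x axis, log scale), with the median of all lines of the list as a dashed line; values are comparable within a panel only. The shared HSPD1 and HSPE1 peak is farthest right in the untreated SON panel (100.96), HSP90AA1 at 3 days (51.1) and HSPA9 at 6 days (15.4), and HSPA9 stands alone in the HMGB2 panel.

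Read within the lists, the strongest SON peak of each gene had a median percentile of 92.9 (untreated), 96.1 (3 days, 9 genes) and 85.2 (6 days, 8 genes). The medians over all protein-coding genes with a peak were 71.9, 66.2 and 59.4. For HMGB2 the medians were 63.7 and 59.8, and apart from HSPA9 no HMGB2 peak of the group ranked above 1009. With a global IDR of at most 0.05, SON peaks were present at all 10 genes without treatment (45.0% of protein-coding genes), 9 at 3 days (24.0%) and 5 at 6 days (5.02%). These 5 were HSPA8, HSPA9, HSP90AA1, HSPD1 and HSPE1. The limit may not act alike in each list, since replicate values were equal in 55.9% of untreated, 29% of 3-day and 9.49% of 6-day lines. In untreated cells HSPA1A, with 11.03 in both replicates, had an IDR of 0.0121. The HSPA5 peak 2097 bp upstream of the start, stronger with 20.2 and 32.6, had 0.0687. These counts are therefore not compared between lists.

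All 12 distinct SON peaks at 3 days overlapped an untreated SON peak, as did 6 of the 7 at 6 days, the exception being the peak inside HSPH1. Over the whole lists 91.6% of the 3-day and 89% of the 6-day peaks did so, and the members' counts lie near these shares. Untreated SON and HMGB2 peaks overlapped at 9 of the 10 genes, against 18.3% of protein-coding genes. They overlapped at 5 of the 10 when each list was limited to as many of its strongest peaks as the shortest list holds. The 18.3% belongs to the full lists, and no such share was counted for the limited ones. Of the 10 HMGB2 peaks, 8 overlapped an untreated SON peak, 7 a 3-day peak and 3 a 6-day peak, the last at HSPA8, HSPA9 and the HSPD1-HSPE1 locus. Over the whole HMGB2 list these shares were 62.4%, 44.2% and 23.7%. The summits of the 8 overlapping pairs in untreated cells were 2 to 99 bp apart, with a median of 46.5 bp.

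Each SON peak comes with a −log10 p from each of 2 replicates. In untreated cells 11 of the 13 peaks had equal replicate values, as had 55.9% of the whole list. At 3 days replicate 2 was the higher in 11 of 12 peaks, and the values were equal in the other. Over that list replicate 2 was the higher in 56.2% of lines and the values were equal in 29%, with replicate 1 higher in the rest. The widest gap was at the second start of HSP90AA1, with 51.1 and 171. For the HSPD1-HSPE1 locus the values were 43.0 and 122, and for HSPA8 42.4 and 99.1. At 6 days replicate 2 was the higher in 5 of 7 peaks, against 46.5% of the list, and 2 went the other way, the HSPD1-HSPE1 peak with 24.3 and 13.6 and the peak inside HSPH1 with 8.45 and 6.92. How the replicates were made is not given in the sources used here.

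**Figure D5:**
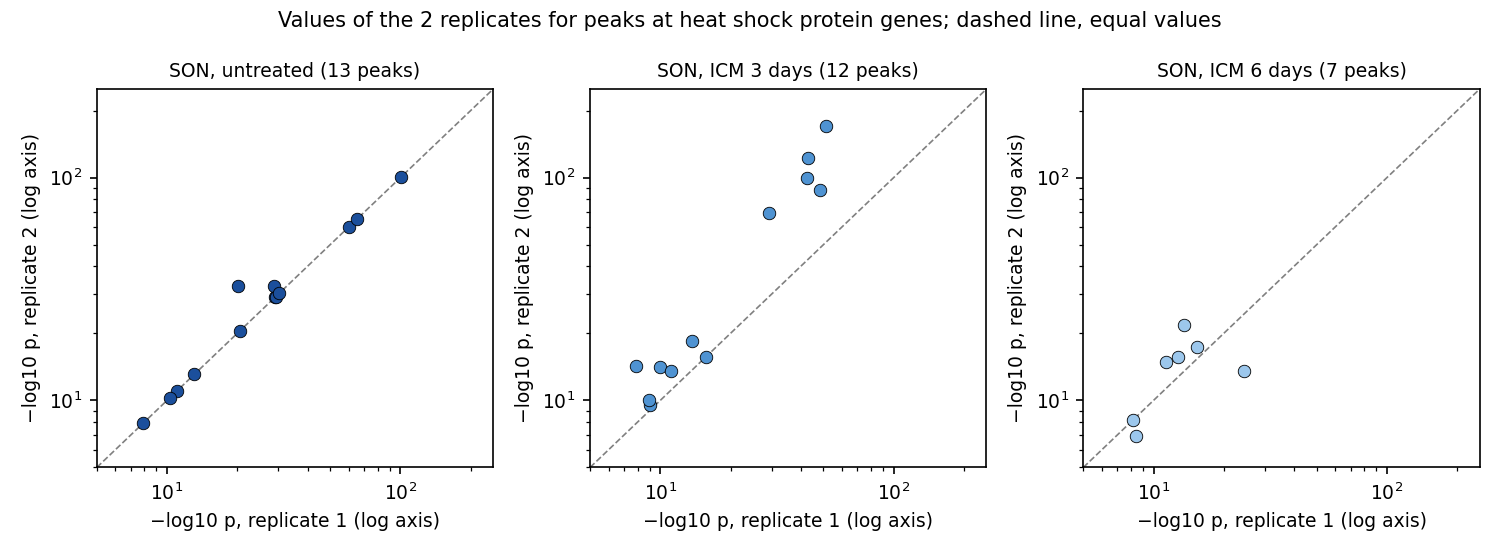
−log10 p in replicate 2 (y axis) against replicate 1 (x axis), both on log scales, for the SON peaks at heat shock protein genes, with a dashed line of equal values. Of the 13 untreated peaks 11 lie on the line and 2, both at HSPA5, lie above it, and 11 of the 12 peaks at 3 days lie above it.

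Heat shock elements were searched in the windows of 250 bases before to 50 after each start, on both strands. The full form, the triplets TTC then GAA then TTC with 2 free bases between neighbours or its reverse complement, was present in 4 of the 16 windows of the group and in 0.49% of all 35116 windows. These were the windows of HSPA8, HSPD1 (second start), HSP90AA1 (second start) and HSP90AB1 (the third start), with 6 separate elements. Each is shown in 30 bases with the element in capitals, to set its place beside the peaks. HSPA8 has elements at chr11:123062345-123062374 and chr11:123062170-123062199, HSPD1 at chr2:197500061-197500090 and HSP90AA1 at chr14:102087111-102087140, all on the minus strand. HSP90AB1 has elements at chr6:44247770-44247799 and chr6:44247823-44247852 on the plus strand.
HSPA8, distal: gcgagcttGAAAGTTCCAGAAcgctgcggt
HSPA8, proximal: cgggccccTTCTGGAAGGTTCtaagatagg
HSPD1: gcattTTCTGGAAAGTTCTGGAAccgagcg
HSP90AA1: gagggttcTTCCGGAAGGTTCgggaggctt
HSP90AB1, distal: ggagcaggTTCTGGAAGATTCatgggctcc
HSP90AB1, proximal: tgagattgTTCTGGAAGCTTCtggattctg

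Of the 6 elements, the 4 of HSPA8, HSPD1 and HSP90AA1 lay inside a peak of every SON list, and 3 of these also inside an HMGB2 peak, the exception being HSP90AA1. Both elements of HSP90AB1 lay outside every peak, since the peaks of that gene stood at its second start and the elements before the third. HSPD1 holds overlapping copies of the element. Pairs of units were more widespread. TTCNNGAA was present in 5 windows of the group and 7.74% of all windows, and GAANNTTC in 7 and 6.77%. These counts include the pairs within full elements. Of the heat-induced genes HSPA1A and DNAJB1, the first had 1 pair and the letters TATAAA, and the second had 2 pairs before its second start. Only the exact letters of these forms were counted. Forms with a changed base were not searched, so a window without the full form may still hold an imperfect element.

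Other motifs were a GC box (GGGCGG) in 15 of 16 windows against 45% of all, a CCAAT box in 7 against 34.6% and TATAAA in 1 against 11.5%. The windows with a GC box belong to 9 genes, and those of HSPD1 and HSPE1 overlap, so that 1 GC box was counted for both. Only the exact letters TATAAA were counted. The related TATATA stands in the stretches shown for HSPA5, HSP90AA1 and the second start of DNAJB1. The ER stress element, CCAAT followed after 9 bases by CCACG, was found in HSPA5 and in 0.0769% of all windows, and it includes 1 of the CCAAT boxes counted. A core of the CTCF motif (CCA, 2 free bases, AG, 2 free bases, GGC) was found in 1 window of the group, before the first start of DNAJB1, and in 2.41% of all windows. That start is the one with a SON peak in all 3 SON lists, the 6-day peak having a global IDR of 0.0879. CTCF itself was not mapped here, and a match of letters is not a binding site.

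Other genes of the chaperone network were read in the same way from lists of 82 genes. Without treatment 73 of them had a SON peak, against 62 at 3 days and 34 at 6 days. HMGB2 peaks were present at 36 and peaks in all 4 lists at 19, where 10.6% of all protein-coding genes had peaks in all 4. These counts are 89%, 75.6%, 41.5% and 43.9% of the 82 genes in the 4 lists, beside 57.1%, 41.0%, 21.5% and 23.3% of all protein-coding genes. All 4 genes of the heat shock factors and their binding protein had a SON peak in untreated cells and at 3 days, and none had one at 6 days. All 8 subunit genes of TRiC, the chaperonin of the cytosol, had a SON peak in the untreated and the 3-day list, and 6 had one at 6 days. Of 9 small heat shock protein genes 4 had a SON peak without treatment, 4 at 3 days and 2 at 6 days, and 2 had an HMGB2 peak, shares of 44.4%, 44.4%, 22.2% and 22.2% that lie below or near those of all genes. Of 11 HSP90 co-chaperone genes 11, 8 and 3 had a SON peak in the 3 SON lists, and of 20 J-domain genes 17, 14 and 8. Endoplasmic reticulum folding genes had SON peaks at 7, 5 and 4 of 7 and HMGB2 peaks at 5. Nucleotide exchange factors had SON peaks at 10, 8 and 4 of 10 and HMGB2 peaks at 7.

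Of these other genes, HSPA14, an HSP70 relative bound to ribosomes, had the highest mean percentile of its strongest peaks over the 4 lists. Its SON peaks had a −log10 p of 87.7 without treatment, 68.0 at 3 days and 28.1 at 6 days, and its HMGB2 peak had 35.5. DNAJC3, an inhibitor of the stress kinase PERK, followed with 43.3, 25.7, 11.2 and 21.03 in the same order, and HSPA13, a microsomal HSP70, with 45.1, 21.2, 12.7 and 14.04. The next were DNAJB2, STIP1, which links HSP70 to HSP90, and CCT7, a TRiC subunit.

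The genes most like each member in pattern were sought among protein-coding genes with a peak in all 4 lists, by the largest difference in the percentile of the strongest peak over the 4 lists. The strongest peak could lie anywhere in the span or within 5 kb of it. At HSPA5, HSPH1, HSP90AA1 and DNAJB1 the strongest peaks of the 4 lists stood at different places, so their patterns mix sites. HSPA1A and HSP90AB1, which lack a peak in 1 or more lists, were left out. For HSPA9 these were UPF2, a factor of nonsense-mediated decay, with a largest difference of 1.41 percentile points, and APEX1, a DNA repair endonuclease, with 2.12. For the HSPD1-HSPE1 locus they were CLASP1 and DYNLRB1 (1.65 and 2.36), and for HSPA8 the neighbours PLOD3 and ZNHIT1, which share their peaks (2.82). For HSP90AA1 they were PDCL3 and NPAT (4.43 and 4.60), and for DNAJB1 ROCK1 and HP1BP3 (3.91 and 3.96). For HSPA5 they were JMY and PRDX1 (3.66 and 5.07), and for HSPH1 CDHR4 and PTCH1 (5.78 and 6.40).

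No peak lay between 2 and 5 kb from a span, and a limit of 20 kb in place of 5 kb would have added peaks in every list, for 24, 20 and 11 SON peaks and 19 HMGB2 peaks. The peaks farthest from a span that still counted were those farther upstream in HSPA5-DT, 1.92 to 1.98 kb away. The nearest left out was an HMGB2 peak 5.48 kb from HSPA9, with a −log10 p of 7.82 and rank 4260 of 6013, followed by SON and HMGB2 peaks at LSM2, 8.29 to 8.41 kb from HSPA1A.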

How the data were processed

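SON and HMGB2 ChIPmentation peaks of IMR90 cells were read from 4 deposited lists, 1 per group, and 2 samples (the HMGB2 input and the one titled with DSG) were not analysed here. The submitters' processing notes name bcl2fastq 2.17, Bowtie2, deepTools and MACS2 and the build hg38, without saying what each was used for. Filters, the control and the way replicates were made are not given in the sources used here. The deposited SON lists, in the layout of the IDR tool, hold −log10 p of each peak, its value in each of 2 replicates, −log10 of the IDR and a score scaled from it. The deposited HMGB2 list holds a fold enrichment, −log10 p, −log10 q and a score, and its peak names state a q of 0.03.

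Gene spans and starts came from RefSeq tables of GRCh38.p14, the build of the lists, and all 10 genes matched both. Peaks counted when at least 1 bp met the window. Ranks were taken over all lines of a list, by −log10 p. Members and gene lists were chosen with earlier results of these data known. Named beyond the members were the 6 chaperone genes with the highest mean percentile among those with peaks in all 4 lists, HSPA1B and HSPA1L, genes whose span meets a member's peak, and the 2 genes closest in pattern to each of the 8 members with a peak in all 4 lists. Genes in the closing observations, and those at peaks just outside the 5 kb limit, were chosen after their values were seen. The design had no test, with 1 list per group. For a gene without an entry in the promoter table both ends of its span stood for its start. Counting was checked on simulated peaks. Alternatives covered the window, the overlap, the strength of peaks, IDR, fold and list length. Python 3.11.15, numpy 2.4.6, pandas 2.3.3 and matplotlib 3.10.9 were used.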

Additional observations from a re-analysis of the deposited data

How the results depend on the processing

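Of 63 values recomputed under alternatives, 52 stayed within 1.5 times the main count. With spans extended by 20 kb, peaks rose to 24, 20 and 11 in the 3 SON lists and 19 in the HMGB2 list. At an IDR of at most 0.05 the 6-day list kept 5 genes and 4 peaks. With the stronger 50% of each list HMGB2 peaks numbered 6, at 6 genes, and with a fold at or above the median 6, at 5 genes. With every list cut to the length of the shortest, untreated SON and HMGB2 peaks overlapped at 5 genes. For the cuts by strength, fold and list length, the shares of all protein-coding genes were not counted. No replicate could be left out, since each group has 1 list. No paired analysis was possible because the groups hold 1 list each. Depth is unknown, and a missing peak does not show absence of binding.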

Other observations

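Strong HMGB2 peaks also stood between 5 and 20 kb from the spans of several heat shock protein genes, in other genes. Near HSPA1A these were at VARS1, with a −log10 p of 50.1 and rank 67 of 6013, and at SNHG32, a host of small nucleolar RNAs, with 38.8 and rank 105. Near HSPA9 the peak at ETF1, a translation release factor, had 30.8 and rank 129, and near HSPE1 the peak at MOB4 had 24.4 and rank 204. SON was weak at VARS1 in untreated cells, with 6.88 and rank 17833 of 22362, and strong at ETF1, with 45.8 and rank 595.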
